A study of Mus musculus with 24 samples.

Results

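Mast cell proteases are the enzymes stored in the granules of mast cells, and 6 of their genes were followed here through sorted cells of mouse fat. They are the tryptase genes Tpsb2, Tpsab1 and Tpsg1, the carboxypeptidase gene Cpa3, and the chymase genes Cma1 and Mcpt4. The 6 were listed by name after their levels in these samples were known, and stand among 22180 genes with exactly 1 symbol. Where a gene had several probe rows, the row was to be selected on its mean over all 24 arrays, but each of the 6 had 1 row, so that step had no effect.

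Mast cells are resident immune cells that lie along blood vessels and in connective tissue, fat included. Their granules hold serine proteases bound to heparin, and they release them together with histamine when the IgE receptor or other receptors are triggered. Tryptases cut after basic residues, chymases after aromatic ones, and carboxypeptidase A3 trims peptides from their C-terminal end. In mice, Cpa3, Cma1, Mcpt4 and Tpsb2 are typical of connective tissue mast cells, whereas Mcpt1 and Mcpt2 mark those of mucosal surfaces.

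RNA of live, sorted stromal cells was measured on 24 single-colour arrays. The cells came out of collagenase-digested gonadal fat, taken from male C57Bl/6 mice of unstated age. The mice received a high-fat diet (HFD, 60% fat), a normal diet (ND), or a weight loss (WL) scheme in which the HFD was fed for 12 weeks and then taken away for 8 weeks. The groups were HFD preadipocytes (PA, 3 arrays) and ND PA (3), HFD adipose tissue dendritic cells (ATDC, 3) and ND ATDC (2), WL CD11c+ adipose tissue macrophages (ATM, 3) and HFD CD11c+ ATM (3), and WL CD11c- ATM (2), HFD CD11c- ATM (3) and ND CD11c- ATM (2). CD11c is an integrin subunit used in the sort, and the other gating markers are not named in the labels. No sorted population was labelled as mast cells. Per the series design, HFD samples and all PA were pools of 3 to 4 mice, and the ND ATM and ATDC came as 2 pools of cells from 4 mice. Pooling of the WL mice is not described, and no CD11c+ ATM sample came from ND mice. Spread between these samples is what the p-values measure, not spread between single mice. Values are the deposited log2 expression values. Levels of different genes come from different probes and are not set against each other. Array medians, which spanned 2.96 to 3.15, served as a mark for low values, since no background calls were used. Over all genes, 7 of the 24 arrays correlated better on average with another group than with their own. These were HFD ATDC replicate 2, WL CD11c+ ATM replicates 2 and 3, WL CD11c- ATM replicate 2 and all 3 HFD CD11c- ATM arrays, and the comparisons are given with each array left out where that changes a call. A gene was tested when at least 2 arrays stood above their own median, which left 15496 genes. All 6 protease genes passed, but Tpsg1 did so only through both WL CD11c- ATM arrays, and Tpsab1 through 5 arrays, of which 2 were WL CD11c+ ATM, 2 were WL CD11c- ATM and 1 was HFD ATDC. A gene that passes only through the group where it is high has to differ there, so no result is read from its passing.

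The 3 tryptase genes lie next to each other in the order Tpsab1, Tpsb2, Tpsg1 on mouse chromosome 17 in the RefSeq annotation of GRCm38.p6. That annotation lists Tpsab1 as a transcribed pseudogene in the C57BL/6J reference, a strain known to carry a splice-site change that prevents the protein. Cma1 and Mcpt4 lie in the chymase cluster on chromosome 14, in the order Cma1, Mcpt-ps1, Cma2, Gm5801, Mcpt1, Mcpt2, Mcpt9, Mcpt4, Mcpt8, Ctsg. Cpa3 lies apart from both clusters, on chromosome 3. Promoter sequence was at hand for 4 of the 6 genes, from the RefSeq table of GRCm38.p6, and 2 (Tpsb2 and Tpsab1) had no entry. The windows of Cpa3, Cma1 and Mcpt4 are printed here because these genes, a carboxypeptidase and both chymases, followed each other closely across the arrays, although Cpa3 lies apart from the other pair. Each is the 250 bases before the annotated start, 5′ to 3′ on the gene's strand. Capitals mark matches on either strand to a pair of motifs. GATAA is the core of sites for GATA factors. The other, TATAAA, is a TATA box.
Cpa3 (chr3:20242182-20242431, minus strand): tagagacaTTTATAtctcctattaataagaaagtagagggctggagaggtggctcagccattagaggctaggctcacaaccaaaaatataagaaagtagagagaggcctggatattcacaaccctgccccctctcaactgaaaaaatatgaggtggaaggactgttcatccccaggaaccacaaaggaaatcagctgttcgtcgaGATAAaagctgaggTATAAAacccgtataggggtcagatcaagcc
Cma1 (chr14:55944676-55944925, minus strand): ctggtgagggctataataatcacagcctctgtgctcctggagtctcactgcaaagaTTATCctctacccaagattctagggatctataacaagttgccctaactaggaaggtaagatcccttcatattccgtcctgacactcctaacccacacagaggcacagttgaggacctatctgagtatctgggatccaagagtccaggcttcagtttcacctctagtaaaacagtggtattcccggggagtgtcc
Mcpt4 (chr14:56062311-56062560, minus strand): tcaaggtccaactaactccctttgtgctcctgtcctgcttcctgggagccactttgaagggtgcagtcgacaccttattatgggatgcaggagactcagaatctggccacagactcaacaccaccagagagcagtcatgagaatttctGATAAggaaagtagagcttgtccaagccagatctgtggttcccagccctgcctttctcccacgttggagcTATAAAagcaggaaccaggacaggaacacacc
The first motif lay 45 to 41 bases before the start of Cpa3 and 102 to 98 bases before that of Mcpt4, and its reverse complement TTATC lay 194 to 190 bases before that of Cma1. TATAAA lay 31 to 26 bases before the start of Cpa3 and 32 to 27 bases before that of Mcpt4, with a further match in reverse complement (TTTATA) 242 to 237 bases before that of Cpa3. The letters CATGTG, a core site for MITF, were not in any of these windows. Matches did not overlap. One of the Tpsg1 windows held GATAA 92 to 88 bases before the start. Of 32851 windows of the same length in the table, 22.6% held GATAA, 12.4% held TATAAA and 12.3% held CATGTG on either strand, so these matches are a description of the sequences and no more.

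Tpsb2 encodes a tryptase of connective tissue mast cells that is stored as a heparin-bound tetramer. Its log2 value was 3.50, 1.89 and 2.58 in HFD PA and 2.26, 2.11 and 2.31 in ND PA. It was 5.86, 2.30 and 2.61 in HFD ATDC and 1.45 and 1.85 in ND ATDC. It stood at 7.11, 6.99 and 6.75 in WL CD11c+ ATM and at 5.61, 2.23 and 2.54 in HFD CD11c+ ATM. All WL CD11c+ arrays lay above all HFD CD11c+ arrays, and all ND arrays lay below their array's median. Among CD11c- ATM it was 10.14 and 10.46 in WL, 7.23, 2.55 and 4.85 in HFD and 1.12 and 2.37 in ND. Both WL CD11c- arrays lay above every other array, and HFD CD11c- ATM spread over more than 4 log2 units, with SD 2.34.

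Tpsab1 encodes, or in this strain would encode, the neighbouring tryptase. It was 3.21, 3.71 and 2.42 in WL CD11c+ ATM, against 2.69, 2.46 and 2.28 in HFD CD11c+ ATM. It was 6.91 and 8.29 in WL CD11c- ATM, against 2.74, 2.34 and 2.48 in HFD CD11c- ATM and 2.85 and 2.47 in ND CD11c- ATM. High values were therefore seen only in the pair of WL CD11c- arrays. In PA and ATDC of both diets it ran from 1.67 to 3.19, and 1 of these arrays (HFD ATDC replicate 1) passed its own median. How far the probes of Tpsb2 and Tpsab1 share signal was not tested.

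Tpsg1 encodes a tryptase that keeps a transmembrane anchor. It was 3.58 and 3.48 in WL CD11c- ATM and between 2.01 and 3.08 on every other array. Both WL CD11c- arrays were the only ones above their median, by a small margin, so Tpsg1 stayed near the low end of these arrays throughout.

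Cpa3 encodes carboxypeptidase A3, which is stored with the chymases in mast cell granules. It was 5.67, 2.18 and 3.72 in HFD PA and 2.71, 2.43 and 1.97 in ND PA. It was 7.88, 3.45 and 4.19 in HFD ATDC and 2.40 and 2.23 in ND ATDC. It stood at 7.84, 7.96 and 7.71 in WL CD11c+ ATM and at 6.46, 3.37 and 3.46 in HFD CD11c+ ATM. All HFD ATDC and HFD CD11c+ ATM arrays passed their medians, and no ND array did. Among CD11c- ATM it was 10.55 and 10.87 in WL, 8.43, 2.29 and 6.25 in HFD and 2.96 and 2.98 in ND. HFD CD11c- replicate 2 thus lay below both ND arrays, and replicate 1 lay above every WL CD11c+ array.

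Cma1 encodes mast cell protease 5, a chymase by sequence. It was 4.17, 2.84 and 3.40 in HFD PA and 2.91, 3.16 and 2.68 in ND PA. It was 6.68, 3.30 and 2.91 in HFD ATDC and 3.10 and 4.00 in ND ATDC. It stood at 7.06, 5.82 and 6.41 in WL CD11c+ ATM and at 5.58, 2.53 and 3.36 in HFD CD11c+ ATM. The WL CD11c+ arrays again lay above the HFD CD11c+ arrays, whereas HFD and ND overlapped in PA and in ATDC. Among CD11c- ATM it was 9.23 and 9.32 in WL, 7.29, 3.19 and 5.49 in HFD and 3.75 and 2.86 in ND.

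Mcpt4 encodes mast cell protease 4, the mouse chymase held to be closest in function to the human one. It was 5.16, 2.64 and 3.37 in HFD PA and 1.88, 0.80 and 1.48 in ND PA. It was 6.72, 1.38 and 2.97 in HFD ATDC and 1.32 and 1.37 in ND ATDC. It stood at 7.81, 7.19 and 7.22 in WL CD11c+ ATM and at 5.81, 2.17 and 2.84 in HFD CD11c+ ATM. The lowest HFD PA array was above the highest ND PA array, which held for no other protease gene in PA. Among CD11c- ATM it was 9.46 and 9.68 in WL, 7.74, 1.56 and 5.91 in HFD and 1.93 and 2.72 in ND.

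**Figure D1:**
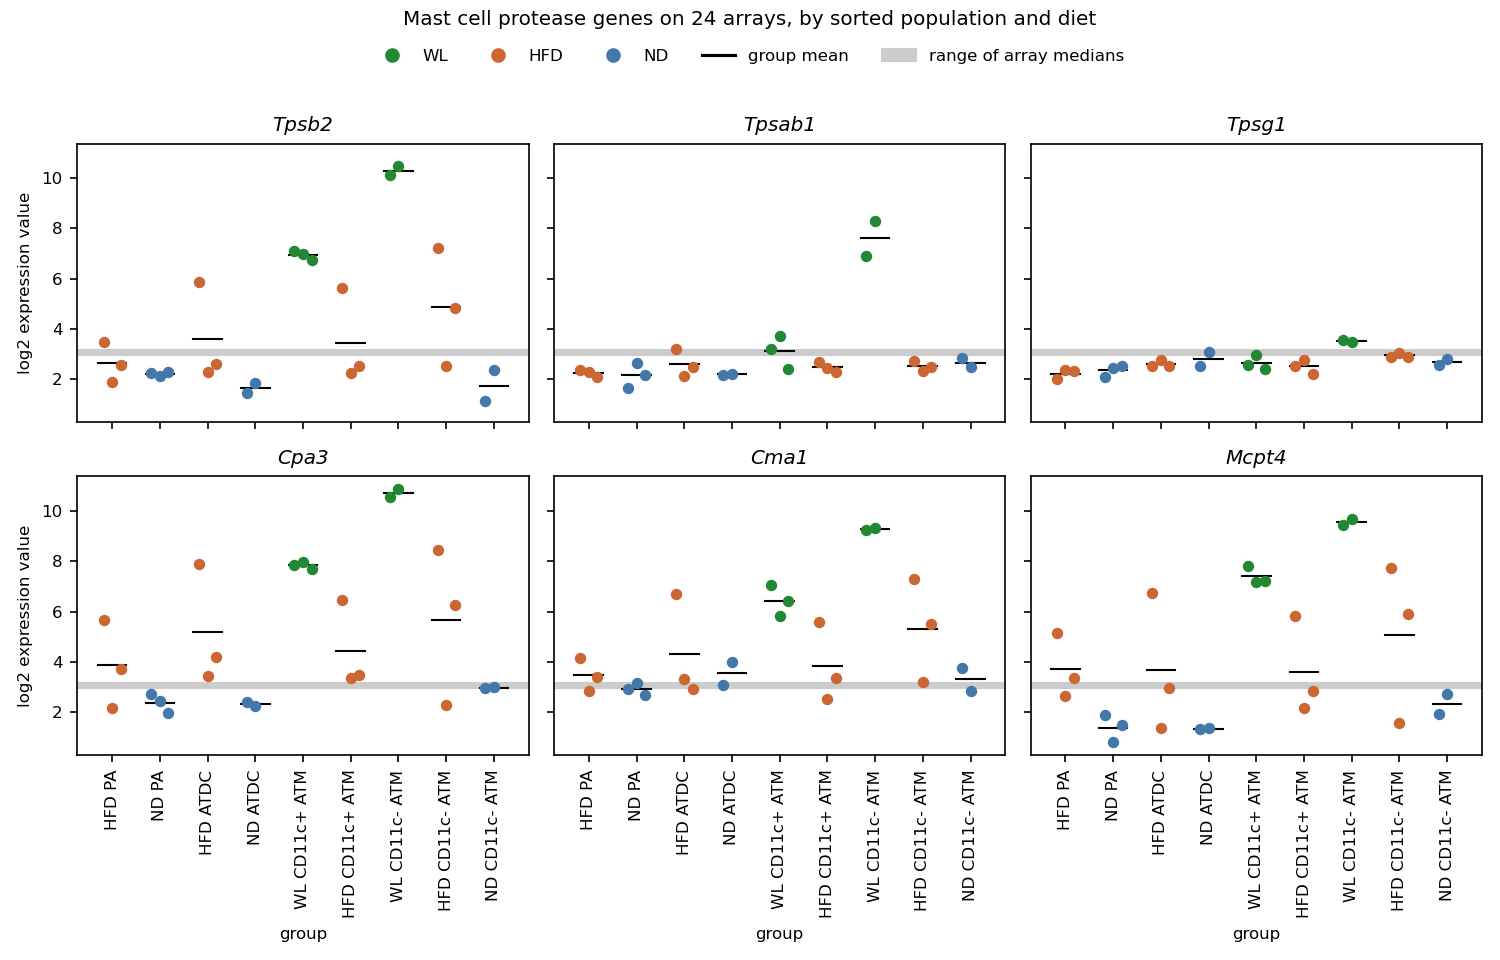
Log2 expression value of the 6 protease genes (vertical axis) on each of 24 arrays (1 point each) by sorted population and diet, with the group mean as a bar and the range of the array medians, 2.96 to 3.15, as a grey band. Both WL CD11c- ATM arrays were the highest of all for each gene, and HFD groups had widely spread arrays for Tpsb2, Cpa3, Cma1 and Mcpt4.

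In the order of the 9 group means, WL CD11c- ATM came first for all 6 genes, and its arrays did not overlap those of the next group for any of them. The next group was WL CD11c+ ATM for 5 genes and HFD CD11c- ATM for Tpsg1. Tpsb2, Cpa3, Cma1 and Mcpt4 then had HFD CD11c- ATM as the third group, followed by HFD ATDC, or HFD PA for Mcpt4. Apart from the step below the first group, neighbouring groups in the order overlapped on their arrays, except ND PA and ND CD11c- ATM for Cpa3 and Mcpt4. There, the 3 ND PA arrays lay below the 2 ND CD11c- arrays, all of them under their medians.

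Across the 24 arrays, Tpsb2, Cpa3, Cma1 and Mcpt4 varied together, with Pearson r from 0.94 (Cma1 with Mcpt4) to 0.98 (Cpa3 with Mcpt4). Tpsab1 had r from 0.70 to 0.79 with these 4 genes, and Tpsg1 from 0.42 to 0.57. The arrays share group structure and a normalization, so these coefficients describe the profiles and were not tested.

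The first comparison set WL against HFD within CD11c- ATM and asked how these cells differed once the high-fat diet had been removed (2 against 3 arrays). Differences are on the log2 scale with the standard error (SE) of a limma fit over all arrays, and adjusted p is Benjamini-Hochberg over the 15496 genes. The 6 genes were picked with earlier results of these data known, so their p-values give their place in the table and are no independent evidence. The tryptase genes Tpsb2 (5.42 ± 1.11, a 42.9-fold difference, adjusted p = 0.012) and Tpsab1 (5.08 ± 0.40, adjusted p = 2.52e-07) were higher in WL. The chymase gene Cma1 was also higher, by 3.95 ± 1.04 (adjusted p = 0.0445). Since no HFD CD11c- array of Tpsab1 passed its median, its difference is at least 4.52 when measured to that mark. Cpa3 (5.05 ± 1.38, adjusted p = 0.0529) and Mcpt4 (4.50 ± 1.44, adjusted p = 0.0988) differed by similar amounts but missed the threshold of 0.05, and Tpsg1 differed by 0.58 ± 0.24 (adjusted p = 0.198). Of the 6 genes, 3 were thus called higher, beside 1.17% of all genes tested, and their median difference was 4.78, beside -0.09 over all genes. Every WL array lay above every HFD array for Tpsb2, Tpsab1, Cpa3, Cma1 and Mcpt4, beside 11.8% of all genes. Tpsg1 did so too, but its passing the filter fixed that, and as the genes were listed with their levels known the separation is a description only. Of all genes ranked by their difference, Tpsb2 was number 2, Tpsab1 number 6, Cpa3 number 7, Mcpt4 number 11 and Cma1 number 19, and Tpsg1 number 1800.

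The call of Tpsab1 was kept in all 5 fits that left 1 array out (4.39 to 5.77). Tpsb2 missed the threshold when either WL array was left out (adjusted p up to 0.0511), with its difference between 4.26 and 6.60 over all leave-outs. Cma1 kept its call only without HFD replicate 1, the HFD array with the highest value, and its adjusted p was up to 0.16 in the other leave-outs. Without that HFD array, Cpa3 was called as well (6.44, adjusted p = 0.0225), and without HFD replicate 2 it differed by 3.37. Mcpt4 ran from 2.75 to 5.84 over the leave-outs and was called in none (adjusted p from 0.0505 to 0.291). A group of sorted cells can gain a signal either through more cells of a kind or through more RNA in each, and these bulk values cannot tell the 2 apart.

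Set against ND within the same cells (2 against 2 arrays), 5 of 6 genes were called higher in WL CD11c- ATM, beside 3.23% of all genes. Tpsb2 was higher by 8.55 ± 1.22 (adjusted p = 0.000362), Cpa3 by 7.73 ± 1.51 (adjusted p = 0.00443) and Mcpt4 by 7.24 ± 1.58 (adjusted p = 0.00874). These were numbers 1, 2 and 3 of the 15496 genes by the size of the difference. No ND array of these genes passed its median, and measured to that mark the differences are at least 7.18, 7.59 and 6.45 in the order named. Cma1 was higher by 5.97 ± 1.14 (adjusted p = 0.00388, number 5), and Tpsab1 by 4.94 ± 0.44 (adjusted p = 1.22e-06, at least 4.49, number 18). Tpsg1 differed by 0.85 ± 0.26 (adjusted p = 0.0578). The 5 genes called separated the groups without overlap, beside 19.9% of all genes, as did Tpsg1, for which the filter fixed it. The median difference of the 6 was 6.61, beside -0.08. Mcpt4 missed the threshold without ND replicate 1 (6.85, adjusted p = 0.0749), and the other 4 calls were kept in all 4 leave-outs.

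Within CD11c+ ATM, WL was set against HFD (3 against 3 arrays). No protease gene was called by limma, beside 0.632% of all genes called higher. An unadjusted p under 0.05 was seen for 4 of 6, but the share of all genes at that mark was not counted. These 4 varied together over the arrays (r from 0.94 to 0.98), so they are not separate results. Mcpt4 differed by 3.80 ± 1.29 (adjusted p = 0.124), Tpsb2 by 3.49 ± 0.99 (adjusted p = 0.077), Cpa3 by 3.40 ± 1.23 (adjusted p = 0.146) and Cma1 by 2.61 ± 0.93 (adjusted p = 0.142). These 4 genes, with a median difference over all 6 of 3.01 beside -0.10 for all genes, stood above every HFD array on all 3 WL arrays, which 8.81% of all genes did. Without HFD CD11c+ ATM replicate 1, Tpsb2 passed (4.57, adjusted p = 0.0453). Tpsab1 differed by 0.63 ± 0.36 (adjusted p = 0.328) and Tpsg1 by 0.14 ± 0.21 (adjusted p = 0.756).

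Between the WL macrophages, CD11c+ ATM were set against CD11c- ATM (3 against 2 arrays). Tpsab1 was lower in CD11c+ ATM, by -4.49 ± 0.40 (adjusted p = 2.06e-06), and it was the only one of the 6 genes called, beside 0.652% of all genes called lower. Tpsb2 (-3.35 ± 1.11, adjusted p = 0.143), Cpa3 (-2.87 ± 1.38, adjusted p = 0.342), Cma1 (-2.85 ± 1.04, adjusted p = 0.189), Mcpt4 (-2.16 ± 1.44, adjusted p = 0.513) and Tpsg1 (-0.88 ± 0.24, adjusted p = 0.0722) were not called. All 3 WL CD11c+ arrays lay below both WL CD11c- arrays for the 5 genes other than Tpsg1, beside 11.8% of all genes, and for Tpsg1 the filter fixed it. Whether the WL against HFD difference itself differed between CD11c+ and CD11c- ATM was tested as an interaction. It was called for Tpsab1, at -4.45 ± 0.54 (adjusted p = 0.000264), beside 0.142% of all genes called in that direction, and for none of the other 5, whose adjusted p ran from 0.843 to 0.973. The HFD values behind the interaction of Tpsab1 were all under their array medians.

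**Figure D2:**
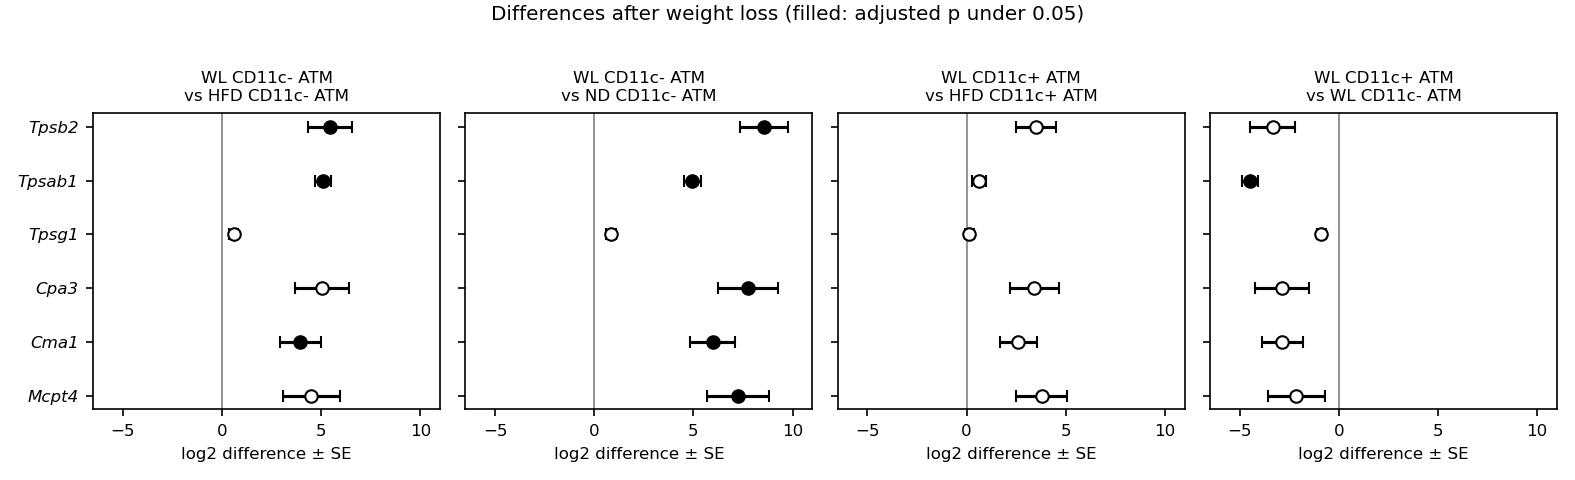
Log2 difference (horizontal axis, estimate with SE of the limma fit) of the 6 protease genes in the 4 comparisons that involve WL macrophages, first-named group minus second-named. Filled points have an adjusted p under 0.05: 3 genes against HFD and 5 against ND in CD11c- ATM, none in CD11c+ ATM, and Tpsab1 between the WL populations.

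The diet comparisons without weight loss gave no call for any of the 6 genes. In CD11c- ATM (HFD against ND, 3 against 2 arrays), Tpsb2 differed by 3.13 ± 1.11 (adjusted p = 0.311, unadjusted p = 0.011), and 0.439% of all genes were called higher. It was the only 1 of 6 with an unadjusted p under 0.05, a mark whose share over all genes was not counted. The difference of Tpsb2 was 1.95 without HFD replicate 1 and 4.29 without HFD replicate 2 (adjusted p = 0.0582). Every HFD CD11c- array lay above both ND arrays for 2 of 6 genes (Tpsb2 and Tpsg1), beside 14.1% of all genes. All Tpsg1 arrays of both groups were under their medians, however, as was Tpsb2 on HFD replicate 2 (2.55). Cpa3 (2.68 ± 1.38), Mcpt4 (2.74 ± 1.44) and Cma1 (2.02 ± 1.04) had adjusted p of 0.635, 0.649 and 0.639 in the order named. Over the leave-outs Cpa3 ran from 1.30 to 4.37, Mcpt4 from 1.41 to 4.49 and Cma1 from 1.04 to 3.09, lowest without HFD replicate 1 and highest without HFD replicate 2, with no call. In ATDC (HFD against ND), 0.155% of all genes were called higher, and the differences of the 6 ran from -0.20 (Tpsg1) to 2.86 ± 1.38 (Cpa3, adjusted p = 0.588), with 0 at an unadjusted p under 0.05. For 3 of 6 (Tpsb2, Cpa3 and Mcpt4) all HFD ATDC arrays lay above both ND ATDC arrays, beside 11.9% of all genes, although the lowest Mcpt4 array in HFD ATDC, at 1.38, exceeded ND ATDC by very little. On HFD ATDC replicates 2 and 3, Tpsb2 and Mcpt4 were under the array median. In PA (HFD against ND), 1.69% of all genes were called higher, and the differences ran from -0.13 (Tpsg1) to 2.34 ± 1.29 (Mcpt4, adjusted p = 0.543), again with 0 at an unadjusted p under 0.05. In PA 1 of 6 genes (Mcpt4) separated HFD above ND without overlap, beside 9.03% of all genes, and its value on HFD PA replicate 2 (2.64) was under the median. The interactions of diet with population, PA against CD11c- ATM and ATDC against CD11c- ATM, called none of the 6 (beside 0.277% and 0.0581% of all genes in either direction).

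Between populations on the HFD or on the ND, limma called 1 of the 6 genes in 1 of 5 comparisons. Tpsg1 was lower in HFD PA than in HFD CD11c- ATM, by -0.72 ± 0.21 (adjusted p = 0.0184), beside 9.68% of all genes called lower. No array of either group passed its median for this gene, so the size cannot be read as a level. The call was lost without HFD PA replicate 1 and without HFD CD11c- ATM replicate 2 (adjusted p up to 0.0952). Without that HFD CD11c- array, Tpsb2 (-3.38, adjusted p = 0.0195), Cpa3 (-3.48, adjusted p = 0.0364) and Cma1 (-2.92, adjusted p = 0.0334) were called lower in HFD PA. Without HFD CD11c- ATM replicate 1 these differences were -1.04 for Tpsb2, -0.41 for Cpa3 and -0.87 for Cma1, and none was called. Over all leave-outs the adjusted p was up to 0.579 for Tpsb2, 0.896 for Cpa3 and 0.654 for Cma1. HFD CD11c+ ATM against HFD CD11c- ATM gave 0 calls, beside 0.00645% of all genes, and 0 at an unadjusted p under 0.05. HFD ATDC against HFD CD11c+ ATM (4.16%), ND ATDC against ND CD11c- ATM (8.27%) and ND PA against ND CD11c- ATM (23.4% in either direction) also gave 0 calls and 0 at an unadjusted p under 0.05.

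Among the HFD arrays the spread followed the replicate number in the titles. Replicate 1 held the highest value in all 4 HFD populations for 5 of the 6 genes, which 1.45% of the genes tested did. The exception was Tpsg1, which was highest on replicate 2 in each of them, as 1.28% of the genes were. In HFD ATDC, replicate 1 exceeded the higher of the other arrays by 3.75 for Mcpt4, by 3.69 for Cpa3, by 3.38 for Cma1 and by 3.25 for Tpsb2. In HFD CD11c+ ATM the same gaps ran from 2.22 (Cma1) to 3.07 (Tpsb2). For Tpsab1 they were no more than 0.70 in any HFD population, and 0.08 in HFD PA. Tpsab1 passed the array median on 1 HFD array (HFD ATDC replicate 1) and Tpsg1 on none, so for both genes the replicate order lies largely among low values. Replicate 3 was second in HFD CD11c- ATM, at 6.25 for Cpa3 and 5.91 for Mcpt4, and replicate 2 lay lowest, at 2.29 and 1.56. The labels do not say that arrays with the same number came from the same mice or were run together, and the source of this pattern was not tested.

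**Figure D3:**
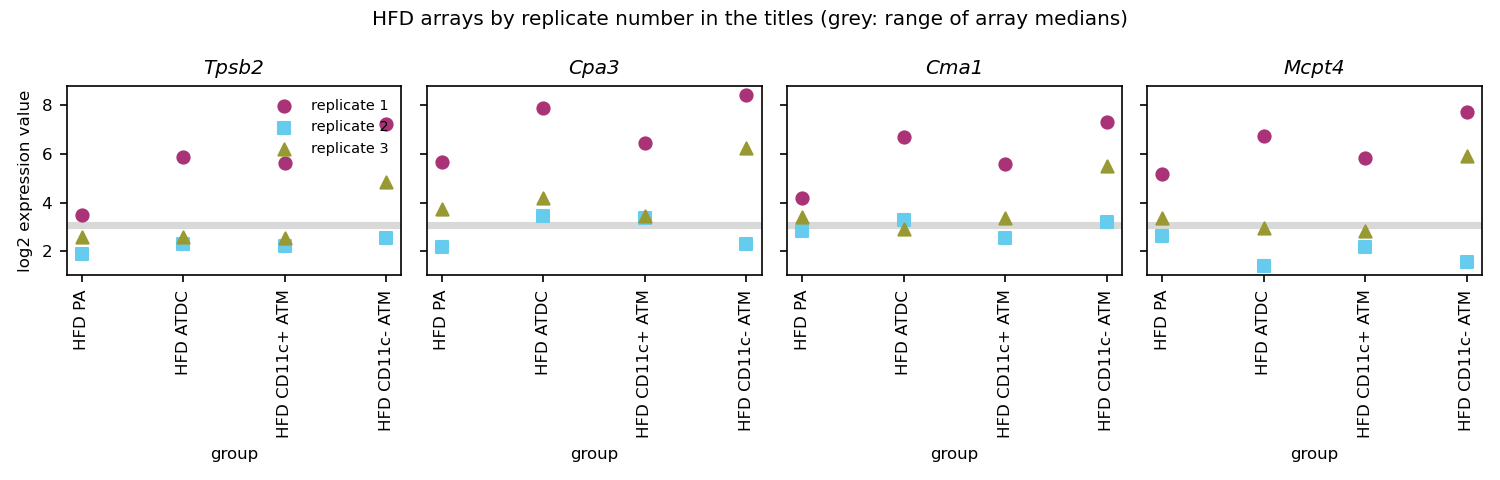
Log2 expression value (vertical axis) of Tpsb2, Cpa3, Cma1 and Mcpt4 in the 4 HFD populations, 1 point per array, marked by the replicate number in the titles, with the range of array medians in grey. Replicate 1 was the highest array of each population for all 4 genes, reaching 8.43 for Cpa3 in HFD CD11c- ATM.

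Genes that mark mast cells other than by these proteases were followed as a list of 18, of which 17 had a single-symbol row and 16 were tested. In WL CD11c- ATM 12 of the 16 were higher than in HFD CD11c- ATM (median 3.24), beside 1.17% of all genes. Against ND CD11c- ATM 11 of 16 were higher (median 2.95), beside 3.23% of all genes. Of the 12, 2 (Tph1 and Cd200r3) passed the filter only through WL CD11c- ATM. They therefore had to differ in every comparison with that group. Fcer1a and Ms4a2, which encode chains of the high-affinity IgE receptor, were higher than in HFD by 5.25 ± 0.65 and 2.78 ± 0.33 (adjusted p = 0.000101 and 8.07e-05). Hdc, which makes histamine, was higher by 4.63 ± 0.41 (adjusted p = 1.67e-06). Tph1, which makes serotonin, differed by 5.20 ± 0.27, as a description only. Kit, the receptor for stem cell factor, was higher by 4.06 ± 0.48 (adjusted p = 7.85e-05), and Slc18a2, which loads amines into vesicles, by 3.70 ± 0.26 (adjusted p = 6.43e-08). Mitf and Hpgds, which macrophages express too, differed by -0.59 ± 0.44 and -0.28 ± 0.64 and were among the tested genes not called. Further genes of the list did not stand out either. Rab27b was 3.00 and 3.68 in WL CD11c- ATM, beside 4.2 on WL CD11c+ ATM replicate 1. Tal1 was 2.82 and 6.27 in WL CD11c- ATM, and Gata1, at 3.05 and 2.70, was too low to be tested. In WL CD11c+ ATM 0 of 16 were called against HFD CD11c+ ATM (median 0.51). There 12 of 16 were lower than in WL CD11c- ATM (median -2.86), beside 0.652% of all genes, with Tph1 and Cd200r3 again bound to differ.

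The median of this list on an array was 6.53 and 6.89 in WL CD11c- ATM. It was 3.27, 2.65 and 2.86 in WL CD11c+ ATM and 2.96, 2.45 and 2.62 in HFD CD11c- ATM, close to the array medians. WL CD11c- arrays had 14 and 16 of the 17 genes above their median, and WL CD11c+ arrays had 10, 7 and 8. HFD CD11c- arrays had 7, 4 and 3, in the order of their numbers. The 7 on HFD CD11c- ATM replicate 1, the array with the highest HFD protease values, included Fcer1a at 3.24, Ms4a2 at 3.28, Mrgprb1 at 3.94 and Mrgprb2 at 4.26, whereas Tph1 (2.21) and Hdc (3.01) were under the median. On HFD ATDC replicate 1, where Cpa3 stood at 7.88, 4 of 17 were above the median (Kit, Mitf, Hpgds and Adora3), as on HFD ATDC replicate 2, where Cpa3 stood at 3.45. Kit does not single out mast cells here, since it was 6.49, 6.16 and 7.38 in HFD ATDC.

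**Figure D4:**
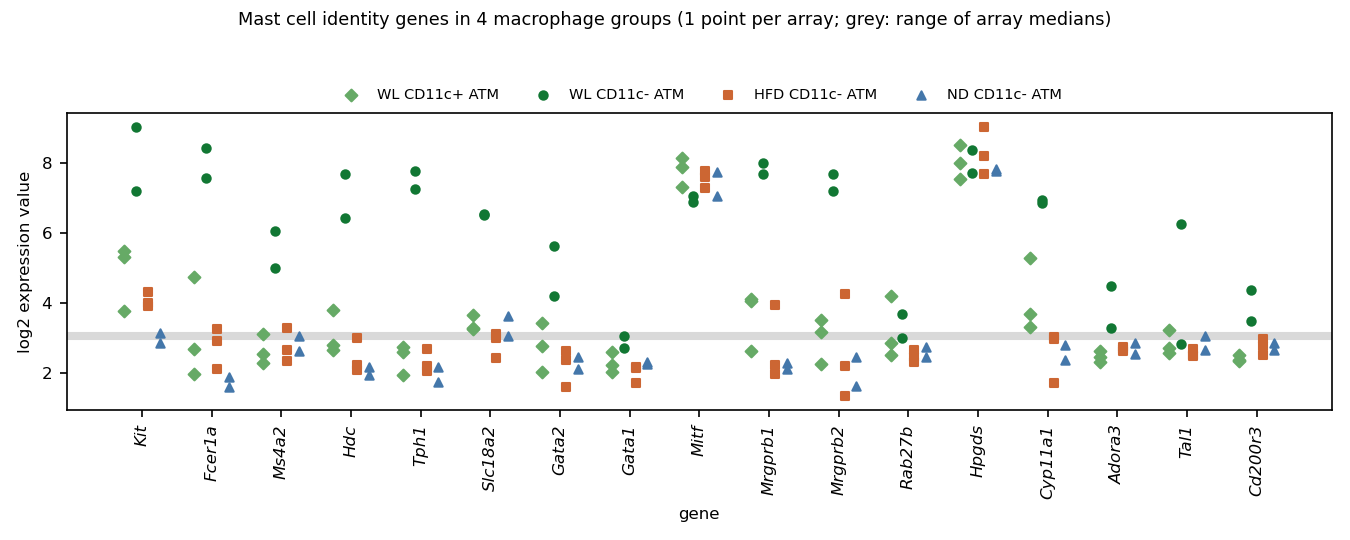
Log2 expression value (vertical axis) of 17 mast cell identity genes in WL CD11c+, WL CD11c-, HFD CD11c- and ND CD11c- ATM, 1 point per array, with the range of array medians in grey. WL CD11c- ATM stood apart for most genes, with 14 and 16 of 17 above the array median. It did not for Mitf, Hpgds and Rab27b or on replicate 1 for Tal1, and Gata1 was under the median on both arrays.

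The other granule proteases of mast cells and basophils were a list of 8, of which 4 were tested. Of these, 2 (Ctsg and Gzmb) were higher in WL CD11c- ATM, beside 1.17% of all genes against HFD and 3.23% against ND. Ctsg encodes cathepsin G and lies in the chymase cluster. It differed from HFD CD11c- ATM by 4.04 ± 0.31 and from ND CD11c- ATM by 4.18 ± 0.34, as a description only. Ctsg was above the array median only in WL CD11c- ATM, so it was tested only through the group where it is high and had to differ. Gzmb, which encodes granzyme B, known from cytotoxic lymphocytes, was higher by 4.54 ± 0.57 than in HFD (adjusted p = 0.000109). Against ND it was higher by 4.41 ± 0.62 (adjusted p = 0.000359). Its mean was also 5.89 in HFD ATDC and 7.65 in ND ATDC, so it does not single out mast cells in these samples. The chymase gene Cma2 was 7.55 on 1 WL CD11c- array and 1.95 on the other, and was not called (3.12 ± 1.04 against HFD, adjusted p = 0.111). The mucosal chymase genes Mcpt1 and Mcpt2 and the genes Mcpt8 and Mcpt9 were too low to be tested, though Mcpt2 reached 4.15 on 1 WL CD11c- array. The levels within the chymase cluster are given as a description only. Cma1, Mcpt4, Ctsg and the pseudogene Mcpt-ps1 were high in WL CD11c- ATM beside their own HFD and ND CD11c- values. Mcpt1, Mcpt8 and Mcpt9, which lie among them, had means of 1.41, 2.39 and 1.63 there, under the array medians. Cma2 and Mcpt2 were split between the WL CD11c- arrays. Gm5801 had a mean of 4.18 there, beside 3.50 in HFD and 3.44 in ND CD11c- ATM. Prss28 and Prss29, next to the tryptase genes and looked at for their position, had means of 2.65 and 2.22 and were not tested.

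Basophils share part of this gene set. Of 9 tested basophil markers, 5 were higher in WL than in HFD CD11c- ATM, beside 1.17% of all genes. The count was the same against ND, beside 3.23% of all genes. Those higher than in HFD included Fcer1a, Gata2 and Cd200r3, which are also in the mast cell list. Cd200r3 was tested only through WL CD11c- ATM and had to differ, which leaves 4. The others were the cytokine genes Il4 (1.90 ± 0.31, adjusted p = 0.0021) and Il6 (5.96 ± 0.56, adjusted p = 2.89e-06), which other cells make as well. Prss34, a protease of basophils and mucosal mast cells, was not called (0.93 ± 0.30, adjusted p = 0.0952), and Mcpt8, the gene most particular to mouse basophils, was too low to be tested.

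Of 9 genes for granule storage and protease processing, none was called in WL CD11c- ATM against HFD or ND, and Ext1, which elongates heparan sulfate, was lower in WL CD11c+ than in WL CD11c- ATM (-1.74 ± 0.34, adjusted p = 0.0129). Of 5 tested protease inhibitor genes, none was called against HFD, and Serpina3n, an inhibitor of chymotrypsin-like proteases, was higher than in ND by 4.19 ± 0.80 (adjusted p = 0.00385). Among 10 tested receptors and substrates, Mmp9, whose zymogen chymases can activate, was higher in WL than in HFD CD11c- ATM (2.28 ± 0.35, adjusted p = 0.00149) and lower than in ND CD11c- ATM (-2.51 ± 0.39, adjusted p = 0.000775). Mmp2 (5.39 ± 0.83, adjusted p = 0.000775) and Col1a1 (3.25 ± 0.66, adjusted p = 0.00563) were also higher than in ND.

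Markers of further cell types were followed as lists too. Of 12 macrophage genes, 0 were called in WL against HFD CD11c- ATM, and 1 (Cd163) was lower than in ND. The list's level (the mean over arrays of its median) was 9.83 in WL, 10.30 in HFD and 10.63 in ND CD11c- ATM, so the macrophage label held by its markers in each. The preadipocyte list level was 10.36 in HFD PA and 10.16 in ND PA. The macrophage list level was 6.90 in HFD PA, with 8.10 on replicate 3, and 4.86 in ND PA. The dendritic cell list level was 8.63 in HFD ATDC and 8.51 in ND ATDC, but macrophage genes were high there as well, with a list level of 8.75 in both and 9.46 on HFD ATDC replicate 2. The dendritic cell list had 0 of 11 called in WL against HFD CD11c- ATM. Against ND 1 was higher and 3 were lower, beside 500 higher and 457 lower of all 15496 genes. The preadipocyte and fibroblast list stood at 8.25, 7.67 and 4.36 in WL, HFD and ND CD11c- ATM. Of its 11 genes, 0 were called against HFD, and 10 were higher than in ND, beside 3.23% of all genes. On single arrays its level was 8.65 and 7.84 in WL and 7.12, 6.98 and 8.92 in HFD, so HFD replicate 3 lay highest. The endothelial list stood at 5.81, 4.11 and 4.07 in the same order. Of its 8 genes, 2 (Cldn5 and Pecam1) were higher than in HFD, beside 1.17% of all genes. Against ND 3 of 8 were higher, beside 3.23% of all genes. Among the mesothelial, T cell, B cell, NK and innate lymphoid, neutrophil, eosinophil and adipocyte lists, at most 1 gene each was called higher than in HFD. The part of these cells in the protease values was not tested.

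The genes whose profile over the 24 arrays was most like the mean of the 6 proteases were Fcer1a (Pearson r 0.88), Mrgprb1 (0.87), Mcpt-ps1 (0.85), Cyp11a1 (0.84), Mrgprb2 (0.84), Hdc (0.83), Ctsg (0.80), Rgs16 (0.80), Muc13 (0.77) and Mrgpra4 (0.76). Mrgprb1, Mrgprb2 and Mrgpra4 encode Mas-related receptors, of which Mrgprb2 is the mouse mast cell receptor for basic secretagogues, and Cyp11a1 makes pregnenolone. By Spearman's rho 1 of these 10 remained among the 10 most alike. Likeness to a profile that is highest in WL CD11c- ATM fixes that these genes are high there, and 3 of the 10 (Ctsg, Muc13 and Mrgpra4) were above the array median in no other group. Their differences between WL and HFD CD11c- ATM, given as a description, ran from 3.15 (Muc13) to 5.25 (Fcer1a). The same choice favours a difference in WL against HFD CD11c+ ATM, where 4 of the 6 proteases separated without overlap. Rgs16, which restrains G protein signals, differed there by 3.55 ± 0.63 and was the only 1 of the 10 called, as a description only.

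Single proteases had different partners. Tpsab1 was most like Ctsg (r 0.98), Muc13 and Cabs1 (both 0.95), and the first 2 of these averaged under the array median in every group but WL CD11c- ATM. Tpsb2 was most like Mrgprb1 and Fcer1a (both 0.86), Cma1 (0.86) and Cpa3 (0.82) were most like Fcer1a, and Mcpt4 had r of 0.80 with Fcer1a and 0.78 with Rgs16. The nearest genes to Tpsg1 were Prrxl1 (0.78), Inpp4b and Serpinb1a (both 0.76). Prrxl1, a transcription factor gene of sensory neurons, was not called in WL CD11c- ATM against HFD CD11c- ATM (0.33 ± 0.19, adjusted p = 0.4).

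**Figure D5:**
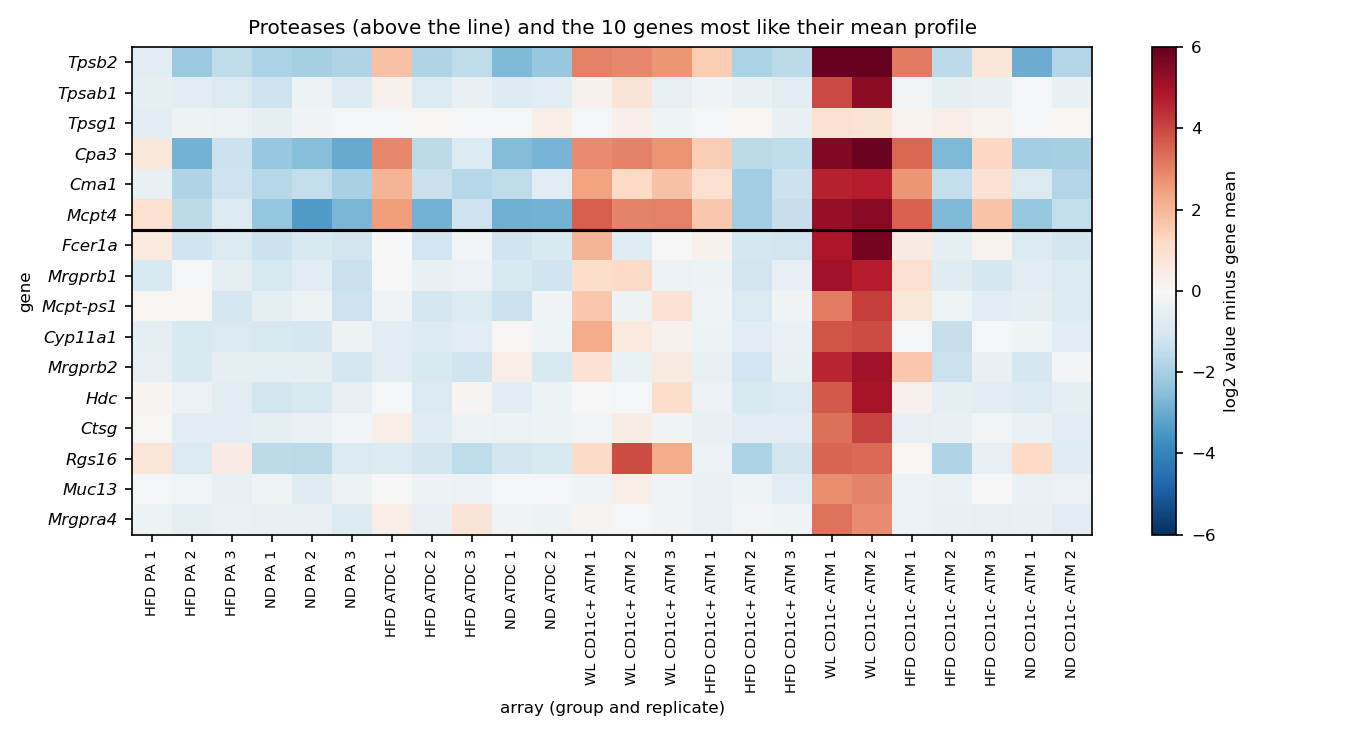
Log2 value minus the gene's mean over 24 arrays (colour, blue below and red above the mean) of the 6 proteases (above the line) and the 10 genes most like their mean profile, by array. The WL CD11c- ATM arrays stood above the mean for all 16 genes, and every WL CD11c+ ATM array did so for Tpsb2, Cpa3, Cma1, Mcpt4, Cyp11a1 and Rgs16 too.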

How the data were processed

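The authors deposited 1 table of log2 values, with 41345 probe rows, for the 24 arrays. RMA, limma and oligo are named, without versions, per the submitters' processing notes. RMA corrects background and quantile-normalizes arrays, so a shift shared by all genes is removed. Per the labels, RNA was amplified with a whole-transcript kit. Scanner intensities were not used here, and the array median as a low mark was chosen after the data had been seen.

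Arrays were grouped by title. Probe rows with 1 symbol in the platform annotation (23521) gave 22180 genes, of several rows the one with the highest mean. Group differences were tested with limma 3.58.1 (lmFit, eBayes) in R 4.3.3, with 1 mean per group over all 24 arrays, two-sided, with Benjamini-Hochberg adjustment over 15496 genes in each of 12 comparisons and 3 interactions and a threshold of 0.05. The fit was also run on simulated data with independent normal noise and 1 spread per gene in all groups. That run does not cover a spread that differs between groups. Where no array of the lower group passed its median, a difference is also given to that mark ("at least"), per array the higher of the median and the value. Precision is limited by how many arrays each group has.

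Named beside the 6 genes were the 10 genes most like their mean profile, the 3 most like each gene, and genes of lists of markers and pathways. The genes, lists, tests and alternatives were chosen with earlier results of these data known. Alternatives covered the filter, probe rows, centring, quantile normalization, a variance trend, array weights, the arrays fitted, a replicate block and each array left out.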

Additional observations from a re-analysis of the deposited data

Results flagged for a closer look

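The WL against HFD difference of Tpsab1 was not the same in the 2 macrophage populations by a test of the difference itself. It was 0.63 ± 0.36 in CD11c+ ATM and 5.08 ± 0.40 in CD11c- ATM, and the difference between them was -4.45 ± 0.54 (limma interaction, adjusted p = 0.000264). Values on WL arrays were 3.21, 3.71 and 2.42 in CD11c+ ATM and 6.91 and 8.29 in CD11c- ATM, so 3 of 3 CD11c+ arrays lay below both CD11c- arrays. The HFD arrays of both populations lay under their medians. It was called in all 11 fits that left out 1 array, with the difference between -5.14 and -3.76. Tests for single outlying arrays need at least 4 arrays in a group and were not made.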

How the results depend on the processing

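Of 450 values recomputed under other settings, 417 were rated the same, and 0 called values changed direction. A count of called genes was rated the same when unchanged, 0 included, or close to the main count. Single calls had to be kept, group levels to move by less than their SD, and most of the 10 most alike genes to be shared. In WL against HFD CD11c- ATM the 3 called proteases became 1 (Tpsab1) with array weights or with only the compared groups fitted, and ranged from 1 to 4 with 1 array left out. In WL CD11c+ against WL CD11c- ATM the 1 call became 0 when at least 6 arrays had to pass their median, which leaves Tpsab1 untested, and 0 with only the compared groups fitted; it ranged from 1 to 2 over leave-outs (Tpsg1 added without WL CD11c+ ATM replicate 2). In HFD PA against HFD CD11c- ATM the 1 call became 0 under that filter, which leaves Tpsg1 untested, and ranged from 0 (without HFD PA replicate 1) to 3 (without HFD CD11c- ATM replicate 2). The WL interaction call became 0 under that filter, where Tpsab1 was not tested. WL against HFD CD11c+ ATM ranged from 0 to 1 over leave-outs. Spearman's rho kept 1 of the 10 most alike genes. Centring each array on its median moved Tpsab1 in ND ATDC to 2.13, Cpa3 in ND CD11c- ATM to 2.93 and Mcpt4 in ND ATDC to 1.28.

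The labels do not say whether replicate numbers mark shared mice, and the numbers were not taken as pairs: deviations from the group means correlated over 0.1 in 4 of 18 same-number pairs of HFD arrays (from -0.11 to 0.25), in 0 of 2 WL and 0 of 6 ND pairs. With the number as a block, the protease calls were 4 for WL against HFD and 6 for WL against ND CD11c- ATM. With diet and number together as a block, an alternative chosen after seeing the data, they were 2 for WL CD11c+ against WL CD11c- ATM and 4 for HFD PA against HFD CD11c- ATM.

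Counts over all genes moved more. The 459 genes called in WL against HFD CD11c- ATM were 173 with array weights and 31 with only these groups fitted. The 957 against ND were 594 and 222, and the 208 in WL CD11c+ against WL CD11c- ATM were 43 and 1, and 129 with the block. The 206 in WL against HFD CD11c+ ATM were 4 with only these groups fitted and from 23 to 771 over leave-outs. In HFD against ND CD11c- ATM the 95 calls were 206 with array weights, 3 with only these groups fitted, 49 with the block and from 30 to 176 over leave-outs. In ATDC the 40 were 0 with only these groups fitted and from 18 to 81 over leave-outs. In PA the 401 were 1119 with array weights, 180 with only these groups fitted and from 177 to 505 over leave-outs. Leaving out 1 array gave from 199 to 570 for WL against HFD and from 374 to 834 for WL against ND CD11c- ATM. The 25 of the WL interaction were 2 under the filter of 6 arrays, 7 with only these groups fitted and from 12 to 63 over leave-outs. Array weights gave 1176 in place of 644 for HFD ATDC against HFD CD11c+ ATM, 26 in place of 1 for HFD CD11c+ against HFD CD11c- ATM and 234 in place of 43 for the interaction of diet with PA. With only the compared groups fitted, there were 660 in place of 1282 for ND ATDC against ND CD11c- ATM, and 0 in place of 9 for the interaction of diet with ATDC. The causes were not tested. With 2 WL CD11c- arrays, the spread there is taken from all groups, and values under the array median have no exact size.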
